A study of Mus musculus with 14 samples.

Results

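The kidney stroma genes are 9 genes that mark the mesenchymal cells lying between and around the epithelia of the developing kidney: Foxd1, Meis1, Meis2, Tcf21, Pdgfra, Pdgfrb, Dcn, Lum and Postn. They were taken by symbol from the deposited table of counts per gene. All 9 were found among its 55487 genes, and all 9 passed the filter on low counts, Foxd1 only through the libraries in which it was high. Libraries were made from cells of E13.5 mouse kidneys, at the time when the ureteric bud branches, sorted for GFP. The GFP and the Cre recombinase that deletes the floxed gene both come from the Hoxb7-Cre transgene, active in the ureteric bud, the epithelium that branches to form the collecting ducts. The tested genotypes were Cep120 KO (5 libraries, numbered 2, 4, 5, 6 and 7 in their titles), a loss of a centriole protein, and Pkd1 KO (3 libraries), a loss of polycystin-1. Each line had 3 control libraries, whose titles read het although the genotype given for them is WT. Whether the libraries of a group stem from different embryos, litters or pools is not stated, and the p-values measure only their spread, which may be technical.

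Stromal progenitors of the kidney express the forkhead transcription factor Foxd1 and give rise to interstitial fibroblasts, pericytes, mesangial cells and smooth muscle. They lie next to the nephron progenitors and the ureteric bud, to which they signal, among others through retinoic acid and the Fat4 and Dchs1 protocadherins. Meis1 and Meis2 are homeodomain transcription factors of the TALE class, and Tcf21 is a basic helix-loop-helix factor of kidney mesenchyme and podocytes. Pdgfra and Pdgfrb are the receptors for platelet-derived growth factors on mesenchymal and mural cells. Dcn (decorin) and Lum (lumican) are small leucine-rich proteoglycans that bind collagen fibrils, and Postn (periostin) is a secreted matrix protein. The ureteric epithelium that was sorted for is of another lineage. In bulk samples, fewer cells of a type and less RNA per cell cannot be told apart.

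Libraries held 11347628 to 27967540 counts. Levels in CPM, read counts relative to the library's total, were scaled by TMM, a factor per library that sets most genes equal. The targeted genes checked the labels in part. Cep120 was at 7.87, 19.5, 21.2, 13.1 and 16.5 CPM in the libraries labelled Cep120 KO, against 10.6, 6.41 and 9.45 CPM in their controls, so its level was not lower. Pkd1 was at 2.68, 2.39 and 2.42 CPM in Pkd1 KO and at 4.60, 3.34 and 3.84 CPM in its controls. In Cep120 KO 2, 4, 5, 6 and 7, where it was not targeted, Pkd1 was at 3.61, 14.5, 15.6, 12.4 and 13.9 CPM. The Cep120-line controls had 3.35, 4.27 and 5.89 CPM of Pkd1. No source used here gives the deleted exons, and the rest of a deleted gene can still be read. Cep120 KO therefore stands throughout for libraries labelled Cep120 KO. The sorted cells carried ureteric bud transcripts in every library: the 13 ureteric bud genes, Ret and Gata3 among them, summed to 3224 to 3680 CPM in 12 libraries. Cep120 KO 6 and Cep120 KO 7 stood apart, with sums of 1357 and 1899 CPM. Ret, Wnt11, Gata3, Cdh1, Krt18, Emx2 and Calb1 were lower there than in any other library, while Pax2 was higher. Krt8, Wnt9b, Wnt7b, Hoxb7 and Lhx1 overlapped the other libraries. Calb1 was the largest part of the sum. It was at 400 and 696 CPM there, 874 and 942 CPM in Cep120 KO 4 and 5 and 1472 to 1939 CPM elsewhere. In those 2 libraries the 9 nephron progenitor genes summed to 899 and 696 CPM, against 26.8 to 63.8 CPM in the other 12. Cep120 KO 4 to 7 also had TMM factors of 1.15 to 1.32, against 0.862 to 0.966 elsewhere, and read long transcripts more than short ones by 0.96 to 1.33 on the log2 scale, against -0.31 to 0.34 elsewhere. No batch is given in the labels, and for these libraries a shared preparation and the deletion cannot be told apart.

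The stroma genes were low in most libraries. The transcription factors Foxd1, Meis1 and Meis2 were highest in Cep120 KO 6 and 7, and Tcf21 in Cep120 KO 6. Summed over the 9 genes, the level was 12.2, 11.7, 15.9, 269 and 206 CPM in Cep120 KO 2, 4, 5, 6 and 7, against 8.58, 50.9 and 11.7 CPM in the Cep120-line controls. The sum was 18.6, 49.3 and 5.67 CPM in Pkd1 KO, against 8.26, 17.7 and 27.0 CPM in its controls. Cep120 KO 6 and 7 lay above every other library, and the other 3 Cep120 KO libraries lay among the controls. Libraries also differed within the other groups, where control 2 of the Cep120 line and Pkd1 KO 2 were the highest.

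**Figure D1:**
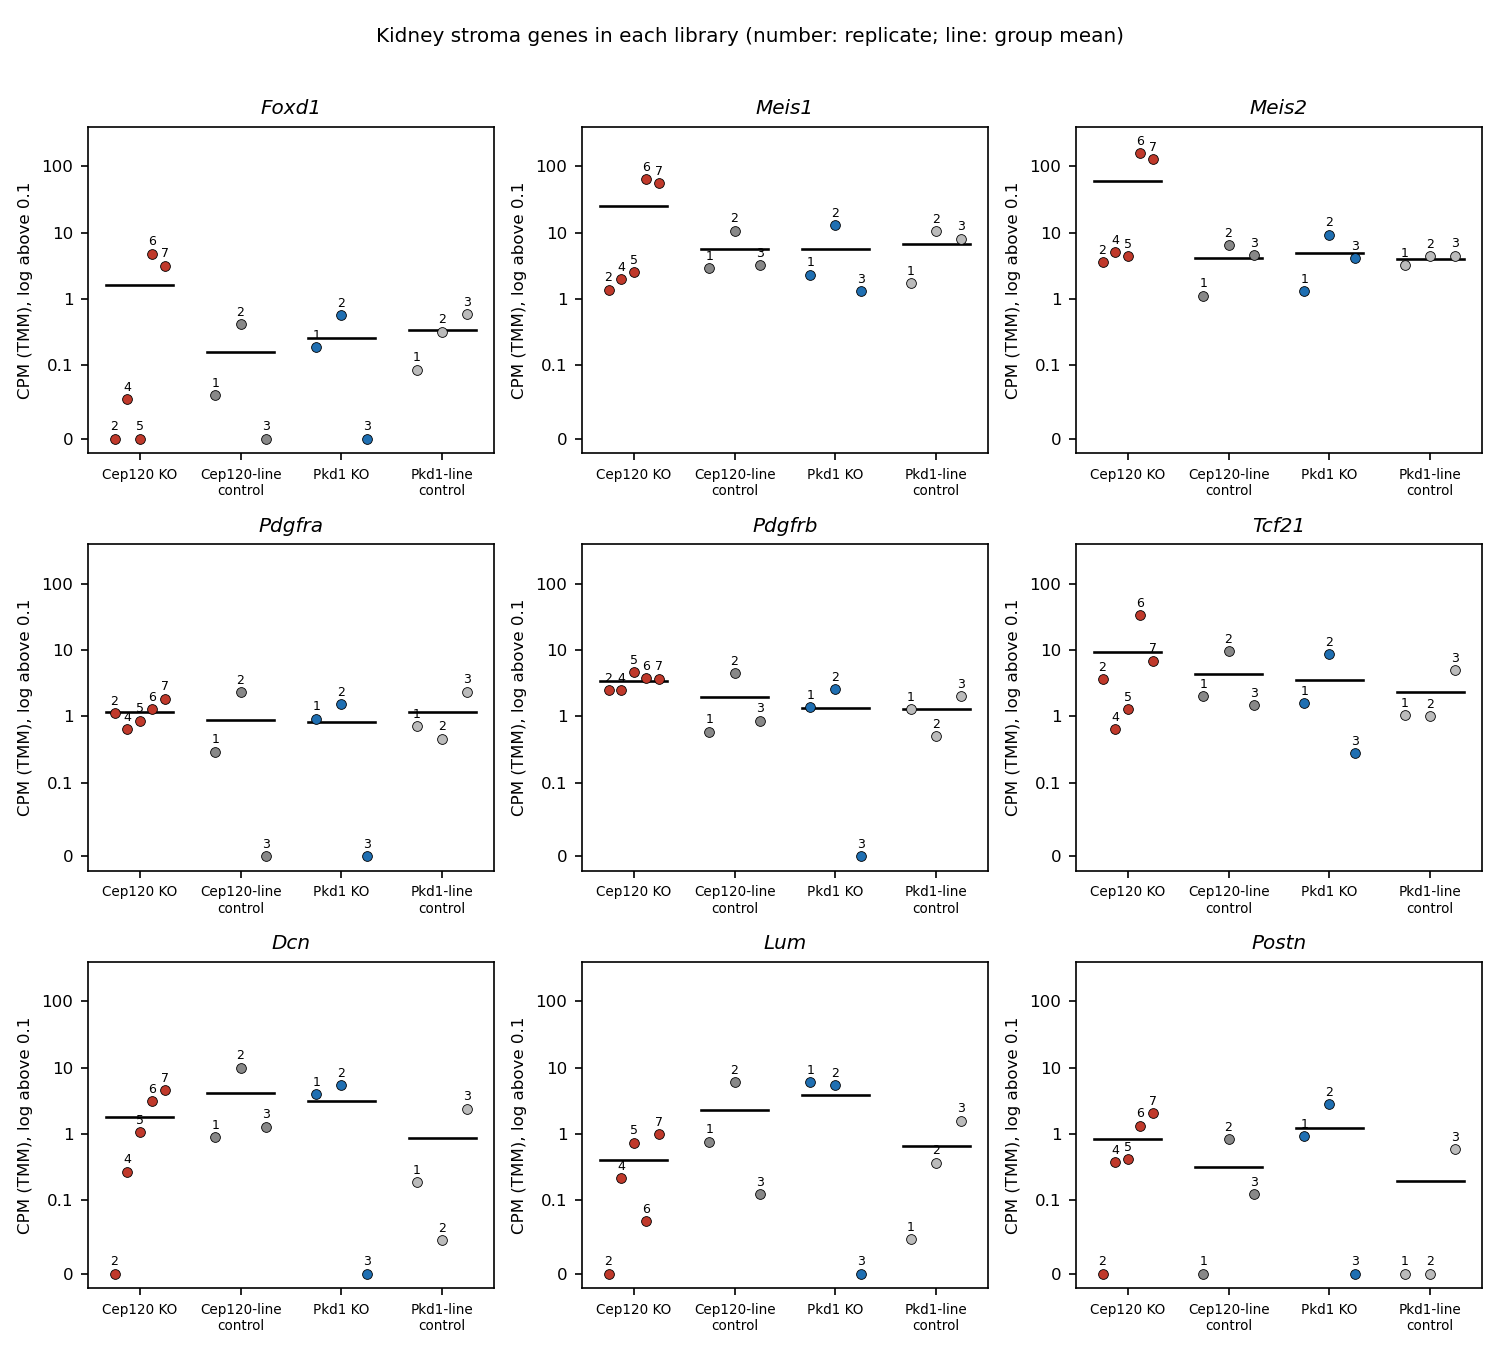
Level of each of the 9 stroma genes in each library, in CPM scaled by TMM on an axis that is logarithmic above 0.1, with points numbered by replicate and a line at each group mean. Foxd1, Meis1 and Meis2 stood highest in Cep120 KO 6 and 7 (Meis2 at 157 and 127 CPM), while Lum was highest in control 2 of the Cep120 line, Pkd1 KO 1 and Pkd1 KO 2.

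Per unit of transcript length, in the TPM values that the authors deposited, Meis2, Meis1 and Tcf21 were the leading members in Cep120 KO, with 31.6 ± 39.9, 14.5 ± 18.7 and 11.7 ± 18.3 TPM (SD, n = 5). The order went on with Dcn at 1.73, Pdgfrb at 0.843, Foxd1 at 0.591, Postn at 0.556, Pdgfra at 0.332 and Lum at 0.270 TPM. The Cep120-line controls (n = 3) had Tcf21 first at 3.61 ± 3.82 TPM, then Meis2 at 2.21 ± 1.33 and Dcn at 2.18 ± 2.77 TPM, with Foxd1 last at 0.0343 ± 0.0494 TPM. In Pkd1 KO the order began with Tcf21 at 3.16 ± 4.04 TPM and Meis2 at 2.99 ± 2.33 TPM and ended with Foxd1 at 0.0627 ± 0.0718 TPM. The Pkd1-line controls began with Meis1 at 2.53 ± 1.80 TPM and ended with Postn at 0.0593 ± 0.103 TPM. The same 3 transcription factors thus held 3 of the first 4 places in every group. Neighbours in each order overlapped within their SDs, apart from Meis2 at 2.09 ± 0.64 TPM and Dcn at 0.578 ± 0.872 TPM in the Pkd1-line controls. Without Cep120 KO 6 and 7, Meis2 averaged 2.82 ± 1.26 TPM and Foxd1 0.00667 ± 0.0115 TPM in the other 3 Cep120 KO libraries.

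Meis2 (ENSMUSG00000027210, chr2:115863064-116065839, minus strand, GRCm38) had the largest fitted difference of the 9 genes between Cep120 KO and its controls. It was at 3.54, 5.01, 4.39, 157 and 127 CPM in Cep120 KO 2, 4, 5, 6 and 7, against 1.12, 6.49 and 4.60 CPM in the Cep120-line controls. It was at 1.30, 9.34 and 4.08 CPM in Pkd1 KO, against 3.19, 4.44 and 4.47 CPM in its controls. The lower of Cep120 KO 6 and 7 was 13.6 times the highest of the other 12 libraries, and Cep120 KO 2, 4 and 5 overlapped the controls. The log2 fold change of Cep120 KO over its controls was 3.86 (SE 1.33, 95% interval 1.00 to 6.72), a 14.5-fold difference that missed the threshold (edgeR adjusted p = 0.0638). It was 0.08 without Cep120 KO 6 and 7 (adjusted p = 0.956), and it passed without Cep120 KO 2 (4.16, adjusted p = 0.0205). The DESeq2 Wald test put it at 3.87 with an adjusted p of 0.00876. Its counts were whole numbers in all 14 libraries, 4382 and 3992 reads in Cep120 KO 6 and 7 and at most 246 reads elsewhere.

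Meis1 (ENSMUSG00000020160, chr11:18879817-19018985, minus strand) showed the same libraries at the top. It was at 1.38, 1.97, 2.55, 63.9 and 55.5 CPM in Cep120 KO 2, 4, 5, 6 and 7, against 2.88, 10.6 and 3.19 CPM in the controls of that line. Pkd1 KO had 2.31, 13.1 and 1.31 CPM, against 1.74, 10.6 and 8.08 CPM in its controls. Cep120 KO 2, 4 and 5 were below all 3 of their controls and Cep120 KO 6 and 7 above all 3, so the groups overlapped. The log2 fold change was 2.16 (SE 1.29, edgeR adjusted p = 0.253), and -1.50 without Cep120 KO 6 and 7 (adjusted p = 0.261). The library kit does not mark strand, so reads of Meis1 and of Gm16140, an antisense gene that overlaps its exons, cannot be told apart. Gm16140 had 33 and 0 reads in Cep120 KO 6 and 7, beside 1784 and 1743 of Meis1. Gm16141, an antisense gene within Meis1 that overlaps none of its exons, had 77 and 80 reads there and at most 23 in any other library. The retained-intron transcripts listed for Meis1 held 17.3 and 16.7% of its count in Cep120 KO 6 and 7, and those of Meis2 held 12.9 and 17.1% of its count. In the other libraries the share went up to 11.4% for Meis1 (Cep120 KO 4, 37 reads) and 14.3% for Meis2 (Pkd1 KO 1, 14 reads).

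Foxd1 (ENSMUSG00000078302, chr13:98354242-98359305, plus strand, a gene with 1 exon) had few reads outside Cep120 KO 6 and 7. It had 0, 1, 0, 134 and 99 reads in Cep120 KO 2, 4, 5, 6 and 7, against 1, 10 and 0 reads in the controls of that line. Pkd1 KO had 2, 15 and 0 reads, against 2, 7 and 13 reads in its controls. On the CPM scale it was at 4.801 and 3.15 in Cep120 KO 6 and 7 and at most 0.587 in the other 12 libraries. A count of 0 allows up to 0.197 CPM in Cep120 KO 2 and 0.123 CPM in Cep120 KO 5, taking 3 reads as the limit. The log2 fold change was 3.22 (SE 1.79, edgeR adjusted p = 0.223). Without Cep120 KO 6 and 7 the gene did not pass the filter and could not be tested.

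Tcf21 (ENSMUSG00000045680, chr10:22817281-22820174, minus strand) was the least even of the 4 factors between the libraries that stood apart. It was at 3.67, 0.640, 1.27, 33.8 and 6.91 CPM in Cep120 KO 2, 4, 5, 6 and 7, against 1.997, 9.69 and 1.47 CPM in the Cep120-line controls. Pkd1 KO had 1.57, 8.62 and 0.277 CPM, against 1.03, 1.01 and 4.92 CPM in its controls. Cep120 KO 7 lay below control 2 of its line, so Cep120 KO 6 alone was above every control. The log2 fold change was 1.07 (SE 1.22, edgeR adjusted p = 0.568), and -0.49 without Cep120 KO 6. Its 2 transcripts differed between libraries: the second had 147 and 74.7 estimated reads in Cep120 KO 6 and 7, beside 796 and 142 of the first. In control 2 of the Cep120 line the second had 2.65 reads and the first 233, and in Pkd1 KO 2 they had 5.41 and 222 reads. The antisense gene Gm10824, which spans Tcf21 without overlapping its exons, had 59 and 80 reads in Cep120 KO 6 and 7, and at most 8 in any other library.

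The 250 bases upstream of the RefSeq start of these 4 genes (GRCm38.p6) are shown because the level of all 4 was highest in Cep120 KO 6. All are written 5′ to 3′ on the gene's own strand, and capitals mark matches on either strand to the Meis core TGACAG, the TATA box TATAAA, the CCAAT box or the GC box GGGCGG. The E-box CAGCTG was searched for as well.
Foxd1, chr13:98353995-98354244, plus strand: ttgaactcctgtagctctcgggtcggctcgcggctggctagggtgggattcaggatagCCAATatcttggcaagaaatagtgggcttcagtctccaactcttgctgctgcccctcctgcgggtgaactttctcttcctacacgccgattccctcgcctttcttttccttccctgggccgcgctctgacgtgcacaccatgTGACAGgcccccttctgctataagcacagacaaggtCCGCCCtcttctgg
Meis1, chr11:19018970-19019219, minus strand: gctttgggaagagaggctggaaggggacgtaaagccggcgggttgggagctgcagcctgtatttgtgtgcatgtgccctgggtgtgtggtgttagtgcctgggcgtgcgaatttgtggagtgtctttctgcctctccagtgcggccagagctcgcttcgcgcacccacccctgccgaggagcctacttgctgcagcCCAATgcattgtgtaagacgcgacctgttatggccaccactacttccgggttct
Meis2, chr2:116064620-116064869, minus strand: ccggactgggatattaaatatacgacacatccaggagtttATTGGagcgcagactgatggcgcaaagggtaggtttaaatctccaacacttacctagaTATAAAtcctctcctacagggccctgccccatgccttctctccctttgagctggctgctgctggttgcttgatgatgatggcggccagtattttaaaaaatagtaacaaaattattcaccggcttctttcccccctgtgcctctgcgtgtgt
Tcf21, chr10:22820144-22820393, minus strand: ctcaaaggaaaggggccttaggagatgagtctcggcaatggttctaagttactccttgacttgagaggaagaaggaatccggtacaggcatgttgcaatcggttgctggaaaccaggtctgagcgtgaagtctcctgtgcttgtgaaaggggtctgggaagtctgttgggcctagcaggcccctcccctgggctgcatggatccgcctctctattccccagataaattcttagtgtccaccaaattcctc
The window of Foxd1 held the Meis core, a CCAAT box and a GC box. That of Meis1 held a CCAAT box, that of Meis2 a CCAAT box and a TATA box, and that of Tcf21 none of the 5 motifs. Among 27025 RefSeq upstream windows of the same length, 15.97% held the Meis core, 12.8% the E-box, 12.97% the TATA box, 34.5% the CCAAT box and 32.9% the GC box. These matches describe letters in a window and are not measured binding sites.

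The platelet-derived growth factor receptors did not share the pattern of the transcription factors. Pdgfrb (ENSMUSG00000024620, chr18:61045150-61085061, plus strand), the receptor of pericytes and other mural cells, was at 2.49, 2.51, 4.60, 3.73 and 3.69 CPM in Cep120 KO 2, 4, 5, 6 and 7. Its controls had 0.587, 4.43 and 0.859 CPM. All 5 Cep120 KO libraries were above controls 1 and 3, and only Cep120 KO 5 was above control 2, so the groups overlapped (log2 fold change 0.78, SE 0.87, edgeR adjusted p = 0.559). Without Cep120 KO 6 and 7 the log2 fold change was 0.69. In the Pkd1 line it had 1.39, 2.58 and 0 CPM in the KO, against 1.27, 0.503 and 2.03 CPM in controls.

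Pdgfra (ENSMUSG00000029231, chr5:75152292-75198215, plus strand), the receptor of many mesenchymal progenitors, was at 1.11, 0.640, 0.862, 1.29 and 1.85 CPM in Cep120 KO 2, 4, 5, 6 and 7, against 0.294, 2.34 and 0 CPM in their controls. Its values in Cep120 KO lay within the range of the controls (log2 fold change 0.36, SE 1.09, edgeR adjusted p = 0.843). Pkd1 KO had 0.925, 1.52 and 0 CPM, against 0.704, 0.458 and 2.35 CPM in its controls. Among the 14 libraries, neither receptor was highest in Cep120 KO 6 or 7.

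The matrix genes were high in more libraries than Cep120 KO 6 and 7. Dcn and Lum were highest in control 2 of the Cep120 line, Postn was highest in Pkd1 KO 2, and Cep120 KO 7 came next after Pkd1 KO 2 for both Dcn and Postn. Dcn (ENSMUSG00000019929, chr10:97479609-97518143) and Lum (ENSMUSG00000036446, chr10:97565128-97572703) are neighbours on the plus strand. Dcn was at 0, 0.267, 1.07, 3.12 and 4.52 CPM in Cep120 KO 2, 4, 5, 6 and 7, against 0.881, 10.0 and 1.29 CPM in their controls. Lum was at 0, 0.213, 0.739, 0.0717 and 0.987 CPM in Cep120 KO, against 0.764, 6.04 and 0.123 CPM in the controls. Control 2 of the Cep120 line held the highest level of both among the 14 libraries. In Cep120 KO 6 Dcn had 87 reads and Lum 2, in Cep120 KO 7 they had 142 and 31, and in control 2 they had 244 and 147. The log2 fold change was -1.16 for Dcn (SE 1.35, edgeR adjusted p = 0.578) and -2.47 for Lum (SE 1.35, adjusted p = 0.216). These values rest on control 2: without it they were 0.73 for Dcn and -0.10 for Lum.

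In the Pkd1 line, Dcn was at 3.98, 5.43 and 0 CPM in the KO, against 0.188, 0.0458 and 2.39 CPM in controls. Lum was at 6.01, 5.43 and 0 CPM in Pkd1 KO, against 0.0469, 0.366 and 1.58 CPM in its controls. Pkd1 KO 1 and 2 were above all 3 controls for both genes. Pkd1 KO 3 had no read of either, which allows up to 0.207 CPM, so it cannot be told apart from controls 1 and 2 for Dcn or from control 1 for Lum. Postn (ENSMUSG00000027750, chr3:54361109-54391037, plus strand) was at 0.925, 2.77 and 0 CPM in Pkd1 KO, against 0, 0 and 0.587 CPM in controls. In the Cep120 line Postn was at 0, 0.373, 0.411, 1.33 and 2.07 CPM in the KO, against 0, 0.821 and 0.123 CPM in controls (log2 fold change 1.36, SE 1.55, edgeR adjusted p = 0.569). Cep120 KO 2 and Pkd1 KO 3 had no read of Dcn, Lum or Postn. These same 2 libraries had the lowest sums of the 7 erythroid genes, 5.24 and 13.1 CPM, against 119 to 7166 CPM in the other 12. Erythroid and matrix sums did not go together in every library. Pkd1-line control 2 had an erythroid sum of 4585.5 CPM, with Dcn, Lum and Postn together at 0.412 CPM. The part of such cells in the matrix values was not tested.

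None of the 9 genes passed the threshold in Cep120 KO against its controls, while 14.7% of the 16876 genes tested did, 8.4% higher and 6.26% lower. No member had groups that did not overlap; over all genes, Cep120 KO lay wholly above its controls for 6.41% and wholly below for 8.75%. The median log2 fold change of the members was 1.07, beside 0.12 over all genes. In Pkd1 KO against its controls 0 of the 9 passed (edgeR), beside 0% of all genes. At an unadjusted p under 0.05, 259 genes of 16876 passed there, and DESeq2 called 3 genes over all and limma-voom 0. The widest log2 differences there were those of Postn (2.64, SE 1.76), Lum (2.51, SE 1.60) and Dcn (1.84, SE 1.62), each at an adjusted p of 1 and none for a member at an unadjusted p under 0.05. Foxd1, Meis1 and Pdgfra had values of -0.30, -0.26 and -0.49 in Pkd1 KO, with SEs of 1.22 to 1.82. Intervals of this width do not show that the levels were alike.

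**Figure D2:**
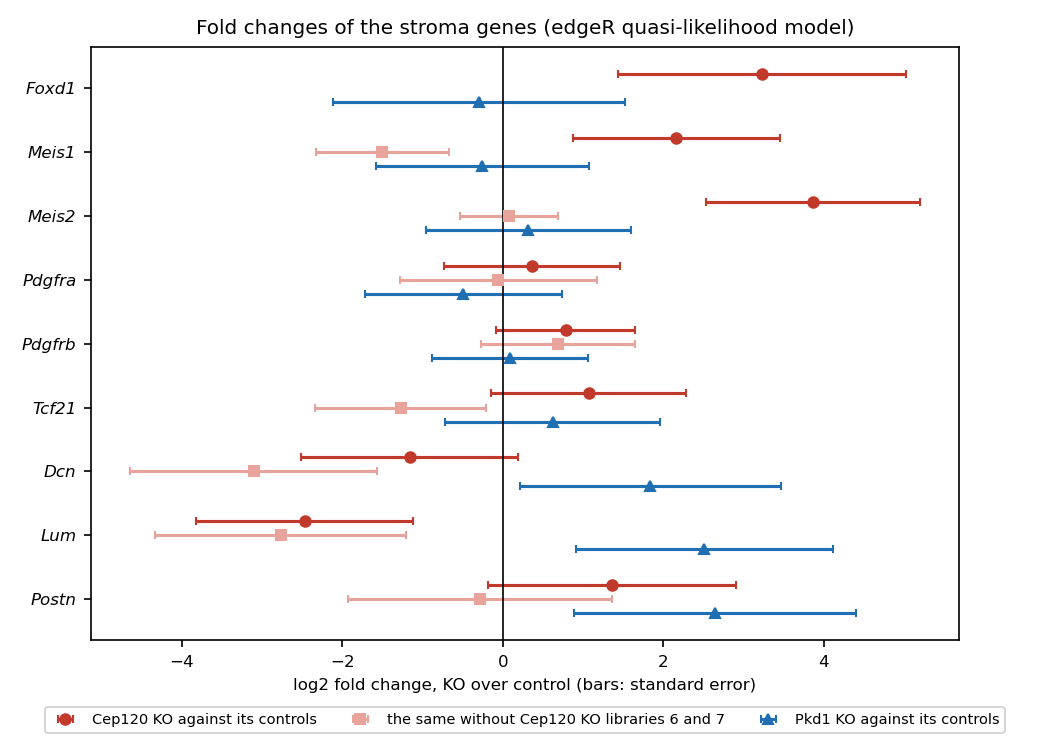
Log2 fold change of each stroma gene with its standard error, for Cep120 KO over its controls (circles), the same without Cep120 KO 6 and 7 (squares) and Pkd1 KO over its controls (triangles). Meis2 goes to 0.08 and Meis1 to -1.50 without those libraries, and Foxd1 has no square because it did not pass the filter.

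The difference between the effects of the deletions was tested directly. It was 3.54 for Meis2 (Cep120 KO effect minus Pkd1 KO effect, log2, SE 1.77, edgeR adjusted p = 0.273) and -0.23 without Cep120 KO 6 and 7. For Lum it was -4.98 (SE 2.11, unadjusted p = 0.0336, edgeR adjusted p = 0.212). No member and 0% of all genes passed, with 3436 genes at an unadjusted p under 0.05 and 715 called by DESeq2. Between the Cep120-line and Pkd1-line controls no member passed, beside 0.124% of all genes, and the members' adjusted p-values were 0.998 or above (edgeR).

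**Figure D3:**
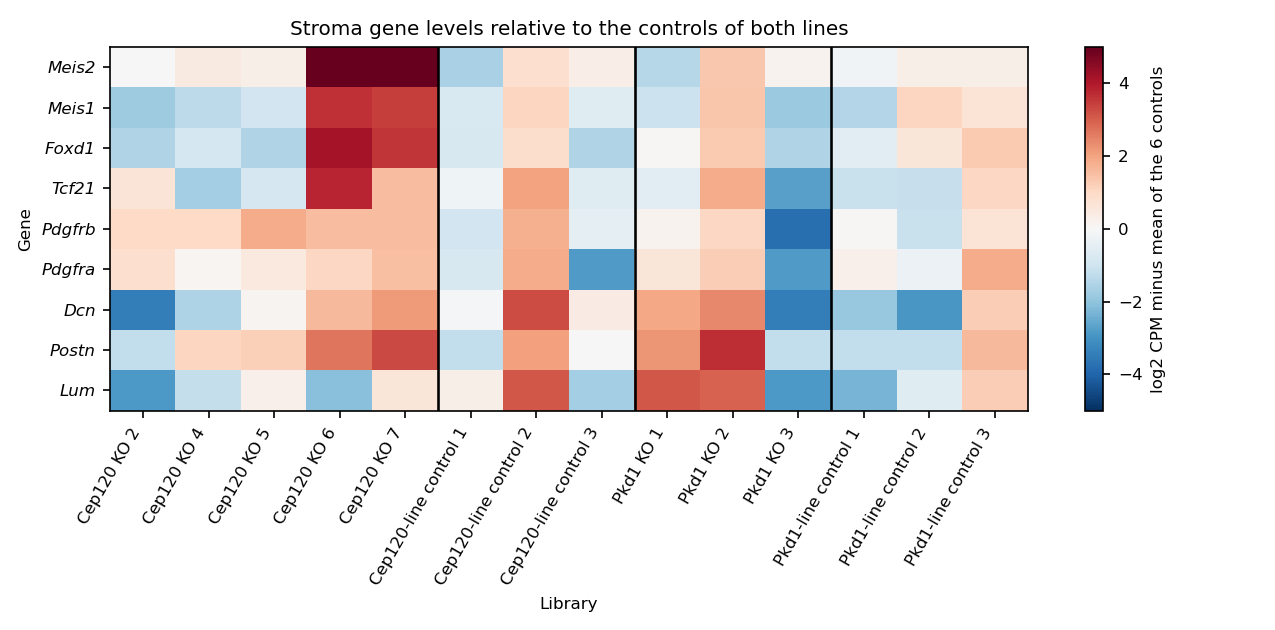
Log2 CPM (prior count 2) of each stroma gene in each library minus its mean over the 6 controls of both lines, red for higher and blue for lower. Meis2, Meis1 and Foxd1 are dark red in Cep120 KO 6 and 7 and near or below the control mean in Cep120 KO 2, 4 and 5, while Dcn, Postn and Lum are red in control 2 of the Cep120 line and in Pkd1 KO 1 and 2. Postn (2.68 and 3.28) and Dcn (1.61 and 2.13) are red in Cep120 KO 6 and 7 as well, where Lum is at -2.08 and 0.61.

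The members also differed in which of them moved together from library to library. Over the 14 libraries, Spearman's rho of log2 CPM was 0.90 between Dcn and Postn, 0.81 between Dcn and Lum and 0.81 between Foxd1 and Meis1, and it was 0.19 between Meis2 and Lum. The points share library, depth and scaling, so these are descriptions. Foxd1 had under 3 counts in 8 of the 14 libraries, so its ranks there rest on few reads. Several genes named below were low too, such as Tigd5, Pnmt and Chgb, at most at 2.33, 2.15 and 2.94 CPM. Outside the list, the genes most like Foxd1 by rho were Minar2 (0.92), Aldh1a2 (0.92), the retinaldehyde dehydrogenase that makes retinoic acid, and Mgp (0.92). Aldh1a2 was at 290 and 297 CPM in Cep120 KO 6 and 7 and at most 9.81 CPM elsewhere. Those most like Meis1 were Shisa3 (0.97), Chgb (0.92) and Npdc1 (0.92), and those most like Meis2 were Tigd5 (0.95), Pnmt (0.93) and Sfrp2 (0.89). For Tcf21 they included Mc2r (0.90) and Rab4b (0.89). For Pdgfrb they were Tepsin (0.92), Fbxw17 (0.91) and Itga8 (0.90), and for Pdgfra Fam169b (0.85), Aldh3b1 (0.85) and B130024G19Rik (0.84). Dcn was most like Bmper (0.92), which encodes a secreted BMP regulator, Osr2 (0.90) and Tgfb1i1 (0.89). Lum was most like Ecscr (0.87), Gm47512 (0.86) and Esam (0.86), of which Ecscr and Esam encode endothelial surface proteins. Postn was most like the matrix gene Tgfbi (0.94), Zdhhc1 (0.94) and the collagen gene Col6a3 (0.92).

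Genes that act with the members were called in small numbers, to be read against the 14.7% called over all genes (8.4% higher and 6.26% lower, median log2 fold change 0.12). With lists of 4 to 15 genes, these counts set no list apart from the other genes, and the same holds for the marker lists of other cell types. Of 15 stromal signals and regulators, 0 were called in Cep120 KO against its controls (median log2 fold change 1.20). The smallest p was that of the protocadherin gene Dchs1, at 10.8, 11.9, 13.3, 63.1 and 51.2 CPM in Cep120 KO 2, 4, 5, 6 and 7 and at 6.58, 10.6 and 8.10 CPM in controls (log2 fold change 1.83, edgeR adjusted p = 0.0542). Of 4 PDGF ligands 1 was higher and 0 lower (median -0.14): Pdgfa, a ligand of Pdgfra, was at 18.2, 31.8, 30.6, 36.2 and 42.4 CPM in Cep120 KO, against 13.8, 13.4 and 13.99 CPM in controls (log2 fold change 1.21, SE 0.24, edgeR adjusted p = 0.0290). Its Cep120 KO libraries were all above their controls, which Pdgfra itself did not show. Of 8 other TALE homeobox genes 2 were higher and 0 lower (median 0.30), Meis3 (log2 fold change 5.38, SE 1.61, edgeR adjusted p = 0.0418) and Pknox1 (log2 fold change 0.65, SE 0.20, adjusted p = 0.0441). Meis3, the paralog of Meis1 and Meis2, was at 39.0 and 31.4 CPM in Cep120 KO 6 and 7 and at most 1.42 CPM in the other libraries. Of 8 further small leucine-rich proteoglycans 5 were tested and 0 called (median -0.57), with Prelp at a log2 fold change of -1.03 (edgeR adjusted p = 0.646). Kera and Epyc had no read in either Cep120 group.

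Of 14 general mesenchymal matrix genes 3 were higher and 0 lower (median 1.10): Sparc, Fn1 and Col5a1. Sparc, which encodes a collagen-binding matrix glycoprotein, was at 356, 754, 765, 951 and 672 CPM in Cep120 KO 2, 4, 5, 6 and 7, against 249, 260 and 237 CPM in their controls (log2 fold change 1.49, SE 0.25, edgeR adjusted p = 0.0290). Fn1, fibronectin, had a log2 fold change of 1.12 (SE 0.34, edgeR adjusted p = 0.0438), and the fibrillar collagen gene Col5a1 one of 3.72 (SE 1.18, edgeR adjusted p = 0.0493). Col5a1 was at 9.49 and 7.04 CPM in Cep120 KO 6 and 7 and at most 1.52 CPM in the other libraries. Of 8 smooth muscle and mural genes tested 2 were higher and 0 lower (median 0.94). The list of 9 summed to 10.49 to 251 CPM in Cep120 KO and 4.76 to 21.4 CPM in controls, where Myh11 had no read. Des was the largest part of the sums in Cep120 KO 6 and 7. Acta2 was at 1.97 and 1.75 CPM there, against 0.822, 3.16 and 0.491 CPM in controls. Only Acta2 and Ren1 of this list had negative log2 fold changes (-0.70 and -2.88), and neither was called. Mcam was at 9.57, 15.9, 18.2, 12.2 and 8.60 CPM in Cep120 KO, against 2.70, 4.39 and 2.15 CPM in controls (log2 fold change 2.06, SE 0.39, edgeR adjusted p = 0.0290), and Des at 224 and 198 CPM in Cep120 KO 6 and 7 and at most 1.14 CPM elsewhere (log2 fold change 8.87, SE 2.69, edgeR adjusted p = 0.0433). In Pkd1 KO against its controls 0 genes of any of these lists were called.

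Nephron progenitor markers other than Cited1 were higher in Cep120 KO 6 and 7, the libraries high in stromal transcription factors, than in any other library. Cited1 was at 23.5, 28.1, 23.9, 50.8 and 33.2 CPM in Cep120 KO 2, 4, 5, 6 and 7, against 55.5, 35.4 and 41.5 CPM in controls (log2 fold change -0.47, edgeR adjusted p = 0.205). The nephron progenitor list had 1 of 9 genes called higher, Six2, at 127 and 86.1 CPM in Cep120 KO 6 and 7 and at most 1.53 CPM elsewhere (log2 fold change 5.98, edgeR adjusted p = 0.0437, list median 4.92). Of 8 nascent nephron and podocyte genes tested (median 2.18), Wnt4 was higher (log2 fold change 3.65, edgeR adjusted p = 0.0321) and Nphs1 lower (log2 fold change -1.06, edgeR adjusted p = 0.0489). Of 13 ureteric bud genes 1 was higher, Pax2 (log2 fold change 1.44, edgeR adjusted p = 0.0370), with a list median of 0.05. Pax2, which nephron progenitors express too, was at 12.6, 22.8, 27.1, 61.9 and 54.6 CPM in Cep120 KO 2, 4, 5, 6 and 7, against 15.2, 11.1 and 13.4 CPM in controls. Its log2 fold change was 0.66 without Cep120 KO 6 and 7 (edgeR adjusted p = 0.101) and 0.25 with length and GC offsets (adjusted p = 0.441). Of 4 cartilage and neural crest genes tested (median 1.40) 1 was higher, Col2a1 (log2 fold change 3.97, edgeR adjusted p = 0.0290), and Sox10 had no read in either Cep120 group. The part of nephron progenitors in the levels of Foxd1, Meis1, Meis2 and Tcf21 was not tested.

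Endothelial, blood and leukocyte markers gave 1 call. Of 8 endothelial genes 0 were called (median 1.17), with Flt1 at a log2 fold change of 2.93 (edgeR adjusted p = 0.241), and their sum was 0.459 to 57.7 CPM in Cep120 KO, against 5.81 to 23.0 CPM in its controls. Of 8 macrophage and leukocyte genes 1 was lower, Tyrobp (log2 fold change -2.74, edgeR adjusted p = 0.0329, list median -1.29), with sums of 4.65 to 27.1 CPM in Cep120 KO and 24.0 to 52.5 CPM in controls. The Cep120-line controls were the high group: the sum was 8.57 to 18.5 CPM in Pkd1 KO and 5.90 to 20.7 CPM in its controls. Tyrobp was at 0.160 to 0.824 CPM in Cep120 KO, 1.36 to 4.70 CPM in its controls and 0.0691 to 0.950 CPM in the Pkd1 line. Of 7 erythroid genes 0 were called by edgeR (median -3.39), and their sum was 5.24 to 1088 CPM in Cep120 KO and 492 to 7166 CPM in controls. In control 2 of the Cep120 line, the highest library for Dcn and Lum, the erythroid sum was the highest of all at 7166 CPM. The next highest sum, 4585.5 CPM in Pkd1-line control 2, came with Dcn at 0.0458 CPM and Lum at 0.366 CPM. The part of erythroid cells in the Dcn and Lum values was not tested. Of the 14 genes called here from the lists, 0 remained called without Cep120 KO 7 or without any 1 control of the Cep120 line, 3 without Cep120 KO 6, and 6 without Cep120 KO 6 and 7: Pdgfa, Sparc, Mcam, Fn1, Col2a1 and Tyrobp.

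**Figure D4:**
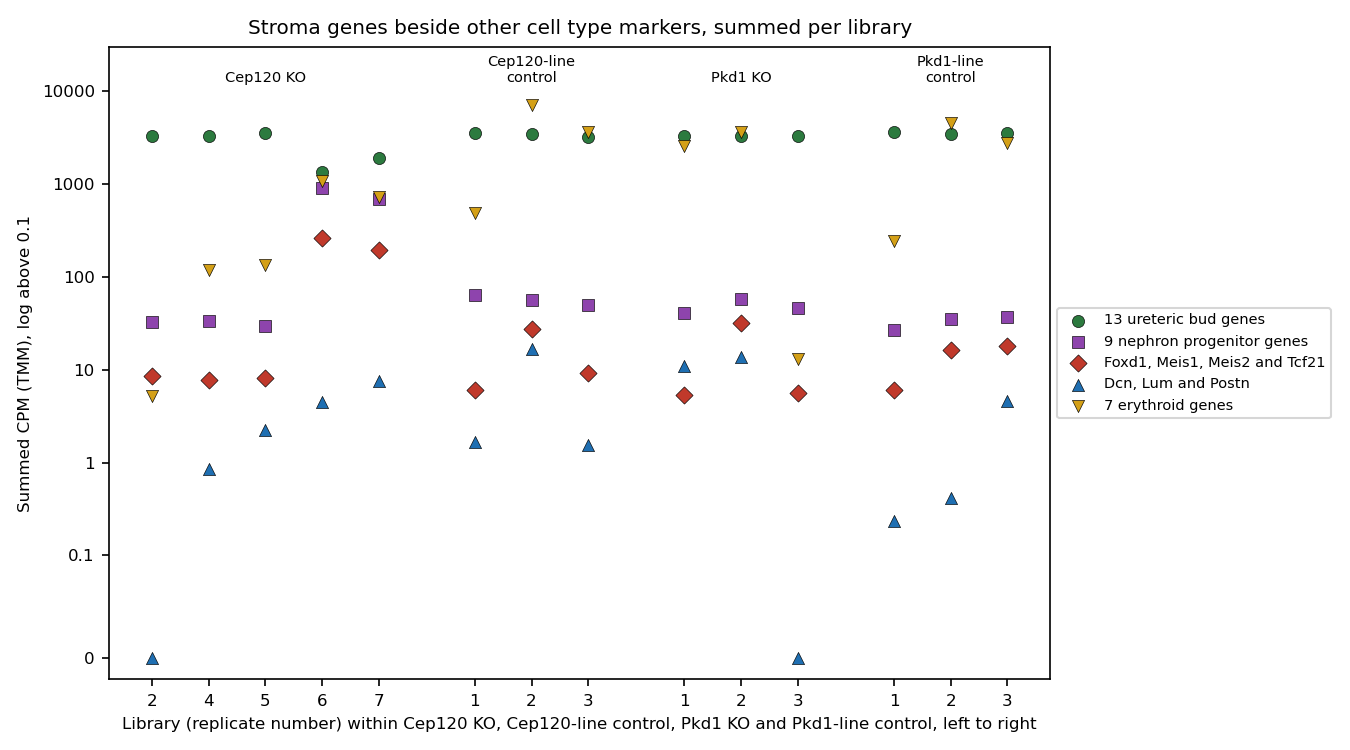
Summed level per library, in CPM scaled by TMM on an axis that is logarithmic above 0.1, of the stromal transcription factors, the matrix members and the ureteric bud, nephron progenitor and erythroid lists. Foxd1, Meis1, Meis2 and Tcf21 together reach 259 and 193 CPM in Cep120 KO 6 and 7. There the sum of the nephron progenitor list is high and that of the ureteric bud list low. Dcn, Lum and Postn together peak at 16.9 CPM in control 2 of the Cep120 line.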

How the data were processed

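The authors deposited estimated counts per gene, not normalized, and TPM values, scaled for transcript length and library total. The deposited log2 values, log2 of CPM plus a small constant, served for an alternative test. Estimated counts per transcript were also deposited, and the table used here lists only some transcripts of most genes. DRAGEN and the mm9 build are named, with no role or version, per the submitters' processing notes. No source used here gives the annotation release or the counting settings. Cells were sorted for GFP, and the SMARTer Ultra Low RNA kit gave the cDNA, per the labels' protocols. Coordinates are from GENCODE M21 on GRCm38, not from the build named, and upstream sequences are from RefSeq on GRCm38.p6.

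Of 55774 lines, 287 repeated a gene and were dropped. Counts were rounded. With filterByExpr (minimum count 10), 16876 genes were kept. These were fitted over 14 TMM-scaled libraries in edgeR 4.0.16 (R 4.3.3) by quasi-likelihood, with 4 group means. Calls needed a p under 0.05 after Benjamini-Hochberg adjustment over all genes tested. Each edgeR SE was taken as the size of the log2 fold change over the square root of the F statistic of its test. The SEs and the 95% interval thus restate the p-value and are not separately fitted errors. The procedure was tested on simulated data with the same spread in all genes and changes shared by all Cep120 KO libraries. That test did not cover libraries that differ within a group, as the Cep120 KO libraries did here. Total counts of 11347628 to 27967540 per library set the precision; limits from a count of 0 take 3 reads and cover counting error only, since amplified copies cannot be removed.

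Alternatives were RLE scaling, no filter, fits of the groups compared, DESeq2 1.42.0, voom and trend in limma 3.58.1, leaving out libraries, a replicate block, length and GC offsets, and Cep120 KO libraries 4 and 5 summed. The last 2 were chosen after seeing the data. The members and lists were chosen with earlier results of these data known. The genes named are all 9 members, up to 3 called genes with the smallest adjusted p from each other list in Cep120 KO against its controls (or, with no call, the gene of lowest p), the 3 genes most like each member by Spearman's rho, and the targeted genes. Some genes that this rule takes are not reported here. Aldh1a2, Cited1, Kera, Epyc, Myh11, Acta2, Ren1, Sox10, the ureteric bud genes and the genes overlapping a member are named besides. Titles and genotype labels set the groups.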

Additional observations from a re-analysis of the deposited data

Results flagged for a closer look

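Among 26 levels examined in the 5 Cep120 KO libraries, 2 had a library far from the other 4, and chance alone sets apart about 1 in 20. That rate holds for independent, normally distributed values, and some of these sums share genes. Tcf21 was at 33.8 CPM in Cep120 KO 6, with the next library at 6.91 CPM, a gap of 0.811 of the whole range against a critical value of 0.710. The 8 endothelial genes summed to 57.7 CPM in Cep120 KO 7, with the next library at 14.1 CPM, a gap of 0.762 of the range. None of the other 8 stroma genes was flagged, but the rule measures 1 gap and cannot flag 2 libraries that are high together. Meis2, at 157 and 127 CPM in Cep120 KO 6 and 7, had a gap of 0.195 of the range, and Meis1 one of 0.135.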

How the results depend on the processing

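In Cep120 KO against its controls the count of members called was 0, and 1 (Meis2) with no filter, with the DESeq2 Wald test (adjusted p = 0.00876) and without Cep120 KO 4 and 5 (log2 fold change 4.55, edgeR adjusted p = 0.0360). Leaving out single libraries gave 0 to 1, the 1 without Cep120 KO 2. Meis2 ranged from 0.08 to 4.55 over all alternatives (adjusted p 0.00876 to 0.956). The counts in the other comparisons were 0 under every alternative run. A fit of only the groups compared is the same fit for the difference between the effects. Of the 14 other genes called from the lists, 0 remained called in a fit of the Cep120 line alone, 3 with length and GC offsets, 6 with limma-voom and 9 with limma-trend. With DESeq2 and without Cep120 KO 2, 0 of these genes were lost. RLE scaling lost 1 (Col5a1), and so did the fit with no filter (Pknox1). The count over all genes moved with the libraries and the tool: beside 2475 it was 5719 without Cep120 KO 2, 314 and 8 without Cep120 KO 6 or 7, 2, 6 and 3 without control 1, 2 or 3, 1557 and 1296 without Cep120 KO 4 or 5, 1303 to 1441 without each Pkd1-line library in turn, 1028 without Cep120 KO 6 and 7, 4199 with DESeq2, 253 with length and GC offsets, 1400 with Cep120 KO 4 and 5 summed and 0 in a fit of that line alone. With limma-trend the median of all genes was 0.45 in place of 0.12. For the difference between the effects it was 3140 without Cep120 KO 2 and 715 with DESeq2, beside 0; for the controls of the lines it was 139 in a fit of those alone and 84 with DESeq2, beside 21.

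Directions turned for members and for Prelp, a gene of the proteoglycan list, none of which passed the threshold in the main fit. Without Cep120 KO 6 and 7, Meis1 was at -1.50, Tcf21 at -1.27, Postn at -0.28, Pdgfra at -0.0559 and the effect difference of Meis2 at -0.23; Pdgfra was at -0.0694 with length and GC offsets. In Pkd1 KO against its controls, Pdgfrb was at -0.85 with limma-voom and -1.32 with limma-trend, where Meis2 was at -0.15 and Tcf21 at -0.16. Leaving out single libraries gave, in Cep120 KO, ranges of -0.49 to 2.41 for Tcf21, -0.21 to 2.91 for Pdgfra, -1.83 to 0.73 for Dcn and -1.59 to 1.15 for Prelp. In Pkd1 KO it gave -1.92 to 0.21 for Meis1, -0.56 to 0.74 for Meis2, -0.92 to 0.66 for Pdgfrb, -1.36 to 1.80 for Tcf21, -1.91 to 0.37 for Foxd1 and -1.38 to 0.51 for Pdgfra. The cause was not tested.

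Same-numbered libraries of the Pkd1 line deviated with correlations of -0.045, -0.029 and -0.124, beside -0.0906 to 0.117 for unlike numbers. The labels do not state a shared origin of same-numbered libraries, and these values cannot exclude one. With the replicate block in a fit of that line alone, 0 of 8 members tested were called, with Meis2 at -0.0144 and Pdgfrb at -0.26. No paired analysis was possible in the Cep120 line because its groups share only the number 2. Depth limits Foxd1, Postn, Lum and Pdgfra, which had 237 to 469 reads over all 14 libraries.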
